A study of Mus musculus with 12 samples.

Results

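Cytokine receptors let activated CD4 T cells read the interleukins around them. The 10 receptor genes described here, of 49585 genes in the count tables, were taken by gene symbol: *Il2ra*, *Il2rb* and *Il2rg* of the IL-2 receptor, *Il7r*, *Il4ra* and *Il21r*, *Il6ra* and *Il6st* of the IL-6 receptor, *Il12rb2* of the IL-12 receptor and *Il18r1* of the IL-18 receptor. All 10 passed the filter on low counts in both kinds of library. The study asked how RNMT, the enzyme that methylates the guanosine of the mRNA cap, acts during T cell activation. CD4 T cells were isolated from lymph nodes of female mice with a kit for naive cells, and were compared between *Rnmt* fl/fl CD4cre + mice (*Rnmt* cKO, in which the *Cd4* promoter drives Cre from thymic development onwards, so that CD8 T cells carry the deletion too) and *Rnmt* fl/fl CD4cre - mice (control). Both genotypes thus carried the floxed allele. Plates coated with anti-CD3 (5 ug/ml) and anti-CD28 (1 ug/ml) activated the cells for 20 h, and 0.1 mg/ml cycloheximide was added for 1 min before lysis. Cytoplasmic RNA (total RNA) and ribosome-protected fragments (RPF, the pieces of mRNA that ribosomes shield from nuclease) were sequenced from 3 control and 3 *Rnmt* cKO cultures, 12 libraries in all. The age of the mice is not given in the sources used here.

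Most of these receptors work as pairs or trios of chains. *Il2rg* encodes the common gamma chain, which the receptors for IL-2, IL-4, IL-7, IL-15 and IL-21 share, and each partner chain adds the specificity for a cytokine. The chains have no kinase of their own: JAK kinases bound to their tails phosphorylate STAT transcription factors, and *Cish* and the Socs genes, which STATs induce, feed back on the pathway. The IL-18 receptor differs, since it belongs to the IL-1 receptor family and signals through MyD88.

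Reads assigned to genes numbered 18915961 to 19111659 in control and 15079703 to 22629563 in *Rnmt* cKO libraries of total RNA. In RPF libraries they numbered 6786164 to 10661356 and 4123271 to 10166729, where *Rnmt* cKO replicate 3 was the shallowest. Values are given as CPM, the count of a gene scaled by the normalised size of its library, in the order of replicates 1, 2 and 3. *Rnmt* itself was at 95.5, 94.1 and 94.3 CPM in control total RNA and at 29.3, 32.4 and 30.4 CPM in *Rnmt* cKO total RNA. In RPF it was at 104, 87.9 and 98.9 CPM in controls and at 10.5, 10.4 and 9.60 CPM in *Rnmt* cKO libraries. The genotypes were far apart in both kinds of library, as their labels state, and the reads that remain can come from the exons outside the deleted exon 3.

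The labelled cell type was checked against markers. *Cd4* was between 316 and 350 CPM in control total RNA and between 271 and 315 CPM in *Rnmt* cKO total RNA, and all 7 T cell markers (*Cd3d*, *Cd3e*, *Cd3g*, *Cd247*, *Trac*, *Lck* and *Cd28*) had reads in every library. The 6 B cell markers (*Ms4a1*, *Cd79a*, *Cd79b*, *Pax5*, *Blnk* and *Cr2*) summed to 7.75, 4.76 and 26.3 CPM in control total RNA and to 69.2, 90.1 and 15.8 CPM in *Rnmt* cKO total RNA, with *Ms4a1* as the most abundant. In RPF they summed to 9.67, 8.44 and 31.0 CPM in controls and to 104, 123 and 17.96 CPM in *Rnmt* cKO libraries. B cell RNA was thus highest in *Rnmt* cKO replicates 1 and 2, and was lower in *Rnmt* cKO replicate 3 than in control replicate 3. B cells express several of these receptors as well, so calls of the receptors and of the other named genes that were lost without *Rnmt* cKO replicates 1 and 2 are named below. Of the 6 markers 4 were tested in total RNA, where *Pax5* and *Blnk* were above 1 CPM in only part of the libraries of a genotype. The other 2 tested both rose, against 26.3% of all 11519 genes tested. Without *Rnmt* cKO replicates 1 and 2 neither passed. The log2 fold change was then 0.36 for *Ms4a1* and 0.70 for *Cd79b*, against 2.18 and 1.92. None of the 6 was at 0 in total RNA, and in RPF 1 was at 0, in *Rnmt* cKO replicate 3. The 8 myeloid markers summed to 0.106, 0.424 and 0.216 CPM in control total RNA and to 1.49, 0.568 and 0.518 CPM in *Rnmt* cKO total RNA, and in RPF to 0.282, 0.151 and 0.613 CPM and to 1.64, 3.22 and 1.48 CPM. Every *Rnmt* cKO library was thus above every control, at low levels. *Fcer1g* was the most abundant and the only one that passed the filter, in RPF and through its *Rnmt* cKO libraries (0.0939, 0.151 and 0 CPM in controls, 1.29, 2.44 and 1.23 CPM in *Rnmt* cKO libraries). The part of these cells in the results was not tested. Among the NK cell markers *Eomes* rose from 2.90 to 25.4 CPM on average in total RNA (log2 fold change 3.13 ± 0.26, standard error, adjusted p = 5.9e-05), whereas *Ncr1*, *Klrb1c*, *Klre1* and *Klra8* were at or below 1.07 CPM in every library and below the filter. In total RNA, *Ncr1* was at 0 to 0.106 CPM in controls and 0.389 to 0.619 CPM in *Rnmt* cKO libraries, *Klrb1c* at 0 to 0.0539 and 0.259 to 0.464 CPM, and *Klre1* at 0.106 to 0.162 and 0.310 to 1.02 CPM. These 3 were higher in *Rnmt* cKO libraries without overlap, at levels below the filter. Of all genes tested in total RNA, 62.3% did not overlap, in either direction. The part of these 3 in the results was not tested. In bulk samples, fewer cells of a type and less RNA per cell cannot be told apart. A fold change is relative to the RNA that was sequenced, not to the cell. The paper reports less mRNA per cell in activated *Rnmt* cKO CD4 T cells than in controls. It states that RNA sequencing therefore underestimates falls of single genes and overestimates rises. Changes per cell were not measured here.

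Short pieces of the promoters with a STAT or kappaB match are shown for orientation, those of raised, lowered and other genes alike, because STAT, NFAT and NF-kappaB factors are the ones that T cell receptor and cytokine signals engage. RefSeq promoters (GRCm38.p6, 250 bases before to 50 bases after the start site) were at hand for 9 of the 10 genes, all but *Il2rb*, as 11 promoters. Both strands were searched for TTCNNNGAA (a STAT site), GGAAA (the core of NFAT sites) and a kappaB site (GGGA, any 4 bases, then CC). The last was added after the sequences were seen, and the motifs can overlap one another. A STAT match was found in 3 of the 11 promoters against 8.30% of all 32851 promoters. A kappaB match was found in 4 against 20.7%, and an NFAT core in 8 against 61.3%. By gene, a STAT match was found in 3, a kappaB match in 4 and an NFAT core in 6. *Il18r1* had more than 1 promoter, and an NFAT core that overlapping promoters share was counted in each. Capitals mark the match. The *Il2ra* window lies at chr2:11642581-11642610 (kappaB, plus strand, starting 201 bases before the start site), the first *Il12rb2* window at chr6:67376292-67376321 (STAT, minus strand, 123 bases before), the second at chr6:67376170-67376199 (kappaB, minus strand, across the start site), the *Il21r* window at chr7:125603188-125603217 (kappaB, printed on the plus strand with the match on the minus strand, 231 bases before) and the *Il7r* window at chr15:9529999-9530028 (STAT, minus strand, 142 bases before). The *Il6ra* window lies at chr3:89913401-89913430 (kappaB, minus strand, 224 bases before), and the *Il18r1* windows, of 1 promoter, at chr1:40465777-40465806 and chr1:40465844-40465873 (STAT, plus strand, 219 and 152 bases before). A match describes letters and not the binding of a factor.
Il2ra: tgccgcggcaGGGAATCCCCctttccttgt
Il12rb2 (STAT): gttcccttttTTCTCAGAAccgcactaagc
Il12rb2 (kappaB): gagcgcagaaGGGACTTCCCcgagggccgg
Il21r: ttcaagaagtGGCAAGTCCCacttcactgc
Il7r: gttcaggagcTTCAGGGAAtaccaagatgc
Il6ra: tcaaaacctgGGGAGGGGCCctggtggggg
Il18r1 (first): tcggggttagTTCTGGGAActgtggagctc
Il18r1 (second): agtacaggtcTTCCCAGAActgaaagcttg

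The receptor mRNAs did not all move one way in *Rnmt* cKO cells. With an adjusted p under 0.05 as the threshold, 5 of the 10 genes rose in total RNA (*Il21r*, *Il12rb2*, *Il2ra*, *Il4ra* and *Il2rb*), 2 fell (*Il6ra* and *Il6st*) and 3 did not pass the threshold (*Il2rg*, *Il7r* and *Il18r1*). Of all 11519 genes tested, 26.3% rose and 28% fell, 54.2% together, so the 7 calls among 10 genes were set against a background in which most genes were called. The genotypes did not overlap for 7 of the 10 genes, against 62.3% of all genes tested. The median log2 fold change of the 10 was 0.32, against -0.0037 over all genes tested. In RPF, 4 rose (*Il21r*, *Il12rb2*, *Il2ra* and *Il4ra*), 1 fell (*Il6ra*) and 5 did not pass, against 14.1% and 15.7% of 11428 genes, 29.8% together. The genotypes did not overlap in RPF for 6 of the 10, against 46.5% of all genes, and their median was 0.30, against 0.0080.

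**Figure D1:**
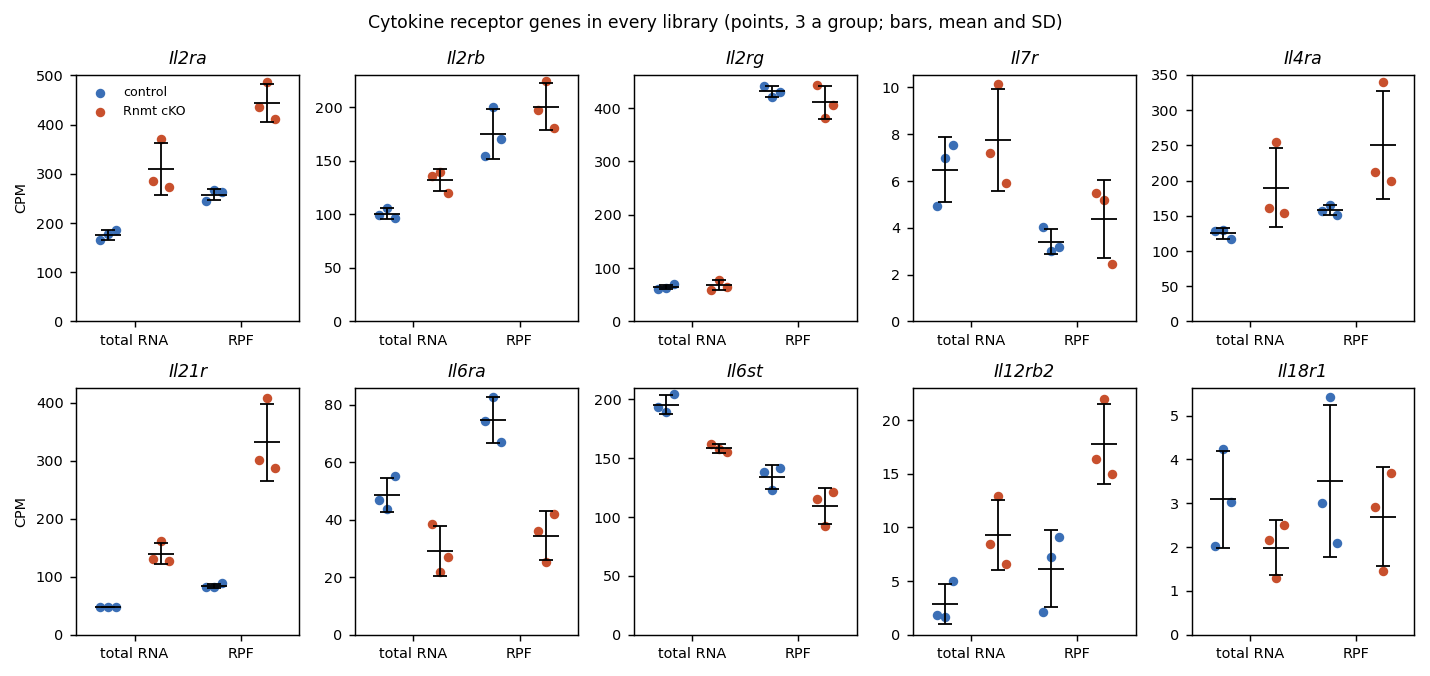
CPM (vertical axes, from 0, a scale for each gene) of the 10 receptor genes in total RNA and RPF, with 3 control libraries in blue and 3 *Rnmt* cKO libraries in orange, and mean and SD in black. The *Il21r* points of the 2 genotypes lie well apart, at 47.3 to 48.4 against 128 to 161 CPM in total RNA, while those of *Il2rg*, *Il7r* and *Il18r1* overlap.

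The smallest adjusted p of the 10 in both kinds was that of *Il21r*, the receptor chain for IL-21, a cytokine of helper T cells that acts on B and T cells. The gene lies on the plus strand at chr7:125603429-125633570 (GRCm38), 23954 bases downstream of *Il4ra*. Its total RNA was at 48.4, 47.3 and 47.7 CPM in controls and at 131, 161 and 128 CPM in *Rnmt* cKO libraries, with no overlap and with almost no spread among the controls. This was a 2.93-fold rise (log2 fold change 1.55 ± 0.09, adjusted p = 1.7e-05 by the quasi-likelihood test of edgeR, as for each adjusted p below unless DESeq2 is named). In RPF it was at 83.2, 82.5 and 88.8 CPM in controls and at 301, 408 and 287 CPM in *Rnmt* cKO libraries, a 3.92-fold rise (1.97 ± 0.13, adjusted p = 7.2e-05). *Rnmt* cKO replicate 2 was highest in both kinds. Without *Rnmt* cKO replicates 1 and 2, the log2 fold change was 1.45 in total RNA and 1.76 in RPF, both past the threshold.

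*Il2ra* encodes CD25, the alpha chain that gives the IL-2 receptor its high affinity and that the T cell receptor and IL-2 itself induce. It lies on the plus strand at chr2:11642807-11693193. It was at 165, 179 and 185 CPM in controls and at 286, 370 and 272 CPM in *Rnmt* cKO libraries in total RNA, and its RPF at 245, 266 and 263 CPM and at 435, 486 and 411 CPM. All *Rnmt* cKO values exceeded all control values in both kinds of library. The rise was 1.75-fold in total RNA (log2 fold change 0.81 ± 0.12, adjusted p = 0.00072) and 1.72-fold in RPF (0.78 ± 0.08, adjusted p = 0.00029). These values are of RNA and of ribosome-protected fragments, not of protein. By flow cytometry of activated lymph node cells, the paper reports equivalent induction of CD25 in both genotypes. CD25 also marks regulatory T cells. *Foxp3*, the factor that defines them, was below 1 CPM in every total RNA library, and in RPF at 5.17, 6.63 and 6.25 CPM in controls and at 4.33, 5.47 and 6.15 CPM in *Rnmt* cKO libraries (-0.19 ± 0.23, adjusted p = 0.56). The other markers on that list, *Ikzf2*, *Ikzf4*, *Tnfrsf18* and *Lrrc32*, all rose in total RNA (26.3% of all genes did), but in RPF 2 of the 5 on the list passed, *Ikzf2* and *Tnfrsf18*, against 14.1% of all genes. Without *Rnmt* cKO replicates 1 and 2, *Lrrc32* in total RNA (0.23, adjusted p = 0.499) and *Ikzf2* in RPF (1.37, adjusted p = 0.26) did not pass, and these 2 calls held in 9 and 8 of the 15 other ways of processing. The 5 together summed to 105 to 117 CPM in controls and 187 to 213 CPM in *Rnmt* cKO libraries, most of it *Tnfrsf18*, in total RNA. Their part in the rise of *Il2ra* was not tested.

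*Il2rb*, the beta chain that signals for both IL-2 and IL-15, lies on the minus strand at chr15:78479256-78495271. In total RNA it was at 99.6, 106 and 96.2 CPM in controls and at 136, 140 and 120 CPM in *Rnmt* cKO libraries. Controls and *Rnmt* cKO libraries did not overlap, and the rise was 1.31-fold (log2 fold change 0.39 ± 0.07, adjusted p = 0.0025). In RPF the values were 154, 201 and 171 CPM against 197, 224 and 181 CPM, which overlapped (0.20 ± 0.11, 95% confidence interval -0.05 to 0.46, adjusted p = 0.21).

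*Il2rg*, the common gamma chain, lies on the minus strand at chrX:101264378-101268255. Control total RNA held it at 61.8, 63.3 and 69.4 CPM and *Rnmt* cKO total RNA at 59.3, 77.8 and 65.5 CPM, and its RPF was at 442, 422 and 431 CPM in controls and at 444, 381 and 407 CPM in *Rnmt* cKO libraries. The genotypes overlapped in both kinds. The log2 fold change was 0.06 in total RNA (95% confidence interval -0.18 to 0.30, adjusted p = 0.64) and -0.07 in RPF (-0.23 to 0.09, adjusted p = 0.46). In the annotation, *Gm20489* on the same strand shares 43.6% of the exon bases of *Il2rg* and had 0 counts, and reads on bases that both genes share are counted for neither, so that the level of *Il2rg* rests on the other 942 of its 1670 exon bases and 379 of its 1107 coding bases.

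*Il4ra*, which pairs with the common gamma chain to bind IL-4, lies on the plus strand at chr7:125552120-125579474. Its total RNA was at 129, 130 and 116 CPM in controls and at 161, 255 and 153 CPM in *Rnmt* cKO libraries. In RPF it was at 157, 166 and 152 CPM and at 212, 339 and 200 CPM. The genotypes did not overlap in either kind, and *Rnmt* cKO replicate 2 stood well above the other libraries in both. The rise was 1.52-fold in total RNA (log2 fold change 0.60 ± 0.18, adjusted p = 0.022) and 1.59-fold in RPF (0.67 ± 0.18, adjusted p = 0.025). Without *Rnmt* cKO replicate 2 the rise was smaller but passed the threshold, at 0.35 in total RNA and 0.39 in RPF. It did not pass once any one control was left out (the adjusted p was then 0.053 to 0.068 for total RNA, and 0.059 to 0.074 for RPF), and without *Rnmt* cKO replicates 1 and 2 it was 0.34 in RPF (adjusted p = 0.076). With the B cell marker level as a covariate it was 0.36 in total RNA (adjusted p = 0.28) and 0.39 in RPF (adjusted p = 0.35).

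*Il7r* encodes CD127, the IL-7 receptor chain that supports naive and memory T cells and that T cells lower on activation. It lies on the minus strand at chr15:9505788-9530176 and was low in all libraries. In total RNA it was at 4.93, 6.99 and 7.55 CPM in controls and at 7.20, 10.2 and 5.92 CPM in *Rnmt* cKO libraries, and its RPF at 4.04, 3.01 and 3.19 CPM and at 5.50, 5.18 and 2.46 CPM. The genotypes overlapped. The log2 fold change was 0.26 in total RNA (95% confidence interval -0.28 to 0.79, adjusted p = 0.38) and 0.40 in RPF (-0.35 to 1.14, adjusted p = 0.39), and at this depth, with 10 to 53 RPF reads of the gene a library, no difference was detectable.

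The IL-6 receptor moved the other way. *Il6ra*, which binds IL-6, lies on the minus strand at chr3:89864059-89913196. In total RNA it was at 46.8, 43.7 and 55.3 CPM in controls and at 38.6, 21.8 and 26.9 CPM in *Rnmt* cKO libraries, a 1.68-fold fall (log2 fold change -0.75 ± 0.19, adjusted p = 0.012). In RPF it was at 74.5, 82.8 and 66.9 CPM and at 36.2, 25.3 and 42.1 CPM, a 2.20-fold fall (-1.14 ± 0.17, adjusted p = 0.0022). All *Rnmt* cKO values were below all control values in both kinds.

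*Il6st* encodes gp130, the signalling chain that IL-6 shares with LIF, oncostatin M and IL-27, on the plus strand at chr13:112464070-112510086. Its total RNA was at 193, 189 and 204 CPM in controls and at 162, 158 and 155 CPM in *Rnmt* cKO libraries. There was no overlap, and the fall was 1.23-fold (log2 fold change -0.30 ± 0.05, adjusted p = 0.0019). In RPF, 139, 123 and 141 CPM in controls stood against 115, 92.2 and 121 CPM, again without overlap, and the value was the same with a larger error (-0.30 ± 0.11, adjusted p = 0.070). It passed the threshold with upper-quartile normalisation (adjusted p = 0.047), with no filter on low counts (adjusted p = 0.0025) and without *Rnmt* cKO replicate 3, the shallowest RPF library (adjusted p = 0.040). Without *Rnmt* cKO replicate 2 it was -0.18 (adjusted p = 0.17).

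*Il12rb2*, the chain through which IL-12 activates STAT4 in type 1 helper cells, lies on the minus strand at chr6:67291318-67376188. Its total RNA was at 1.86, 1.69 and 5.01 CPM in controls and at 8.49, 12.9 and 6.57 CPM in *Rnmt* cKO libraries, and its RPF at 2.16, 7.24 and 9.07 CPM and at 16.4, 21.97 and 15.01 CPM. There was no overlap, although control replicate 3 came close to *Rnmt* cKO replicate 3 in total RNA. The rise was 3.26-fold in total RNA (log2 fold change 1.70 ± 0.42, adjusted p = 0.0098) and 2.98-fold in RPF (1.57 ± 0.42, adjusted p = 0.025). Without control replicate 3, the total RNA value was 2.38. Without *Rnmt* cKO replicates 1 and 2 it was 1.23 in total RNA (adjusted p = 0.084) and 1.31 in RPF (adjusted p = 0.25), and with the B cell marker level as a covariate 0.76 (adjusted p = 0.072) and 1.06 (adjusted p = 0.26). The RPF call was also lost without control replicate 2 (adjusted p = 0.053), without *Rnmt* cKO replicate 1 (adjusted p = 0.053) or without *Rnmt* cKO replicate 2 (adjusted p = 0.087).

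*Il12rb2* shares 40.04% of its exon bases with *Serbp1* on the opposite strand, a gene at 1283 to 1332 CPM in total RNA. *Serbp1* did not differ beyond its spread between the genotypes (log2 fold change -0.0071 ± 0.05, adjusted p = 0.92). When reads of both strands were counted, so that reads on the shared bases went to neither gene, the log2 fold change of *Il12rb2* was 1.80 in total RNA (adjusted p = 0.0080) and 1.54 in RPF (adjusted p = 0.0371).

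*Il18r1*, the IL-18 binding chain, lies on the plus strand at chr1:40465552-40500854, 136 bases from *Il1rl1*. Its total RNA was at 2.02, 4.24 and 3.02 CPM in controls and at 2.17, 1.29 and 2.51 CPM in *Rnmt* cKO libraries, and its RPF at 3.01, 5.43 and 2.08 CPM and at 2.93, 1.46 and 3.69 CPM. The genotypes overlapped in both kinds. With 15 to 80 reads a library, its log2 fold change was -0.63 in total RNA (95% confidence interval -1.39 to 0.13, adjusted p = 0.14) and -0.42 in RPF (-1.49 to 0.65, adjusted p = 0.53). With no filter on low counts it passed the threshold in total RNA (-0.64, adjusted p = 0.033).

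**Figure D2:**
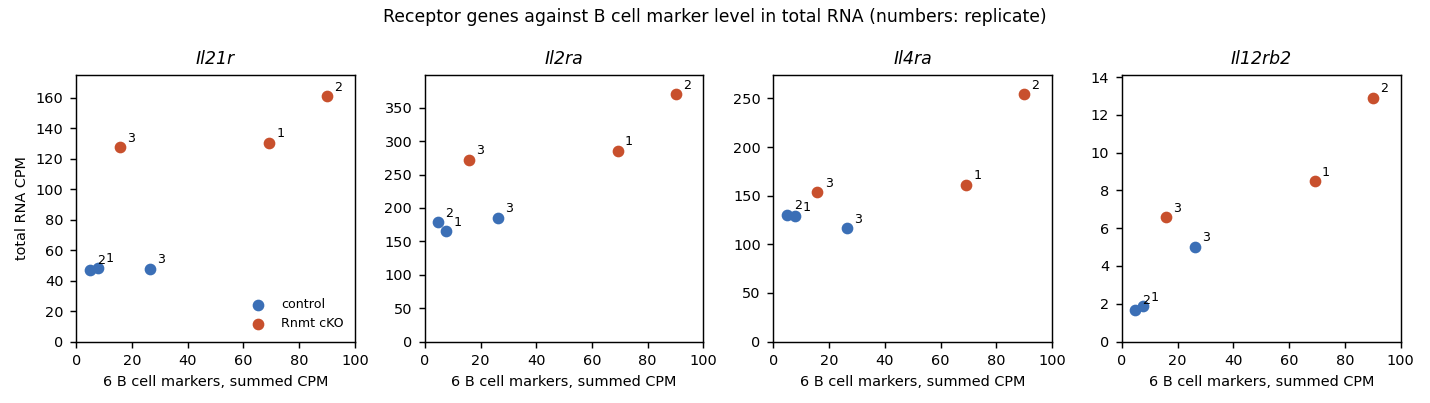
Total RNA CPM of *Il21r*, *Il2ra*, *Il4ra* and *Il12rb2* (vertical axes, from 0) against the summed CPM of the 6 B cell markers (horizontal axes) in the 6 total RNA libraries, labelled by replicate. *Rnmt* cKO replicate 3, at 15.8 CPM of markers, lies left of control replicate 3, at 26.3 CPM, and above it for all 4 genes.

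Translation efficiency (TE, the RPF of a gene relative to its total RNA) was compared between genotypes to ask whether ribosome loading of the receptor mRNAs changed beyond their abundance. The main fit had no term for the culture, although total RNA and RPF came in pairs. In it none of the 10 passed the threshold, whereas 3.24% of 10668 genes tested rose and 6.57% fell, 9.81% together. With a block for the culture *Il21r* passed, as given below, and over all genes 426 rose and 777 fell. In the main fit, at an unadjusted p under 0.05 there was 1, *Il21r*, against 2627 of all 10668 genes tested. DESeq2 called 0 of the 10. The median log2 change in TE of the 10 was -0.011, against 0.035 over all genes. The RPF CPM of *Il21r* was 1.72, 1.74 and 1.86 times its total RNA CPM in controls and 2.31, 2.53 and 2.25 times in *Rnmt* cKO cultures, with no overlap. Its log2 change in TE was 0.42 ± 0.17 (adjusted p = 0.15), and 0.41 with a block for the culture, taken from the replicate number (adjusted p = 0.014), where it passed. It also passed without *Rnmt* cKO replicate 2 (0.36, adjusted p = 0.027). For *Il6ra* the change was -0.40 ± 0.29 (95% confidence interval -1.01 to 0.22, adjusted p = 0.43), and for *Il2ra* -0.03 ± 0.15 (-0.35 to 0.30, adjusted p = 0.95). Ratios of the genotypes were apart for 2 of the 10 genes, *Il21r* and *Il4ra*, against 31.4% of all genes tested.

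**Figure D3:**
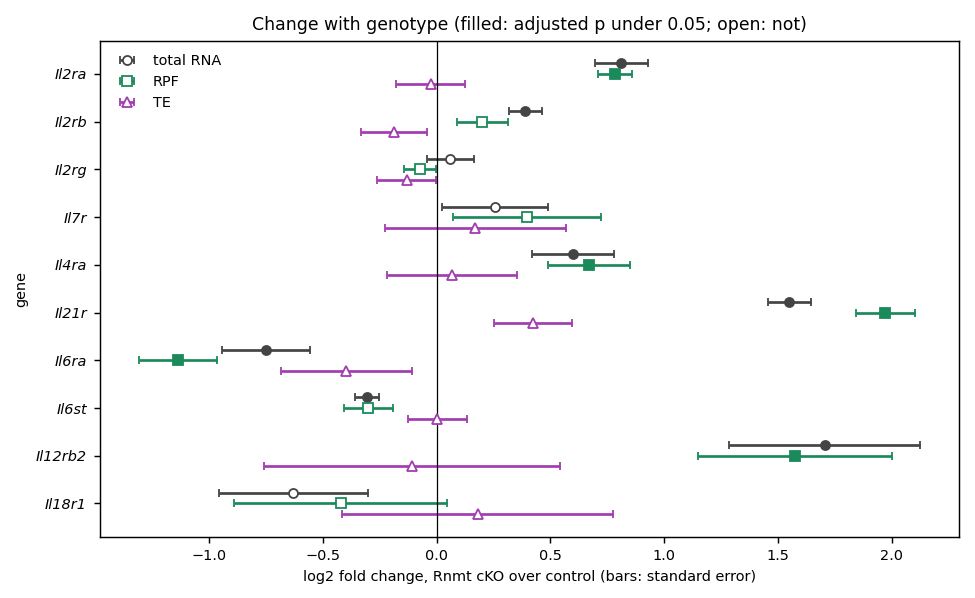
Log2 fold change of *Rnmt* cKO over control (horizontal axis) with its standard error for the 10 receptor genes (vertical axis) in total RNA (circles), RPF (squares) and TE (triangles), filled where the adjusted p was under 0.05. Total RNA and RPF values lie close together for most genes, less so for *Il21r* (1.55 and 1.97) and *Il6ra* (-0.75 and -1.14). No TE symbol is filled, in the fit without a term for the culture.

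Compared per length, the receptors spanned a wide range. In control total RNA, CPM per kilobase of exon was 38.8 ± 2.41 (SD, n = 3) for *Il2rg* and 33.9 ± 1.96 (SD, n = 3) for *Il2ra*, followed by *Il4ra* (23.8) and *Il2rb* (23.5), *Il21r* (18.8) and *Il6st* (17.8), then *Il6ra* (5.62) and *Il7r* (1.83), and last *Il12rb2* (0.752) and *Il18r1* (0.642). Neighbours in this order did not overlap over the 3 libraries, apart from *Il4ra* with *Il2rb*, *Il21r* with *Il6st* and *Il12rb2* with *Il18r1*. In *Rnmt* cKO total RNA, *Il2ra* (59.4 ± 10.2, SD, n = 3) and *Il21r* (55.0 ± 7.32, SD, n = 3) came first and overlapped, ahead of *Il2rg* (40.4). *Il21r* thus stood in place 5 of the 10 in controls and in place 2 in *Rnmt* cKO cells. In control RPF, per kilobase of coding sequence, *Il2rg* (390 ± 9.18, SD, n = 3) and *Il2ra* (321 ± 14.4, SD, n = 3) came first. In *Rnmt* cKO RPF the first 3 were *Il2ra* (552 ± 47.6), *Il2rg* (371 ± 28.3) and *Il21r* (209 ± 41.6), each without overlap with the next, against place 6 for *Il21r* in controls. With the other length for each kind, *Il21r* moved from place 7 to 2 in total RNA and from place 4 to 2 in RPF, while *Il2ra* rather than *Il2rg* came first in control total RNA. The order of the first 3 in *Rnmt* cKO RPF depended on the length too, since per exon kilobase it was *Il2rg* (245.7), *Il21r* (130.6) and *Il2ra* (85.2). All of these values divide by the full length of *Il2rg*, although 43.6% of its exon bases can give no counted read. Over its unshared bases alone, a comparison added after seeing the data, *Il2rg* came first in *Rnmt* cKO total RNA (71.7 ± 10.0, SD, n = 3) and overlapped with *Il2ra*, with *Il21r* in place 3. It then also came first in *Rnmt* cKO RPF, at 1083 ± 82.8 per unshared coding kilobase, ahead of *Il2ra* without overlap.

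The ratio of RPF per coding kilobase to total RNA per exon kilobase differed more between the receptor genes than between the genotypes. It was highest for *Il2rg*, at 10.1 ± 0.716 (SD, n = 3) in controls, for *Il6ra* at 9.80 ± 2.14 and for *Il2ra* at 9.48 ± 0.260, against a median of 2.52 over all genes. Over the unshared bases of *Il2rg* alone its ratio was 16.6 ± 1.18 (SD, n = 3), so its size depends on which bases are taken. With full lengths these 3 genes lay above 95.7%, 95.3% and 95.1% of 10055 genes with a coding length. *Il2rb* (4.61) lay above 79.9% of genes, whereas *Il4ra* (2.74), *Il6st* (2.74) and *Il21r* (2.84) lay near the middle, and *Il7r* (1.43 ± 0.581) above 19.0%. When exon length was used for both kinds, *Il2rg* was still above 98.6% of genes, but *Il2ra* above 65.9% and *Il6ra* above 68.9%, because the exons of these 2 genes are long against their coding sequences (5209 against 804 bases for *Il2ra* and 8642 against 1380 bases for *Il6ra*).

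**Figure D4:**
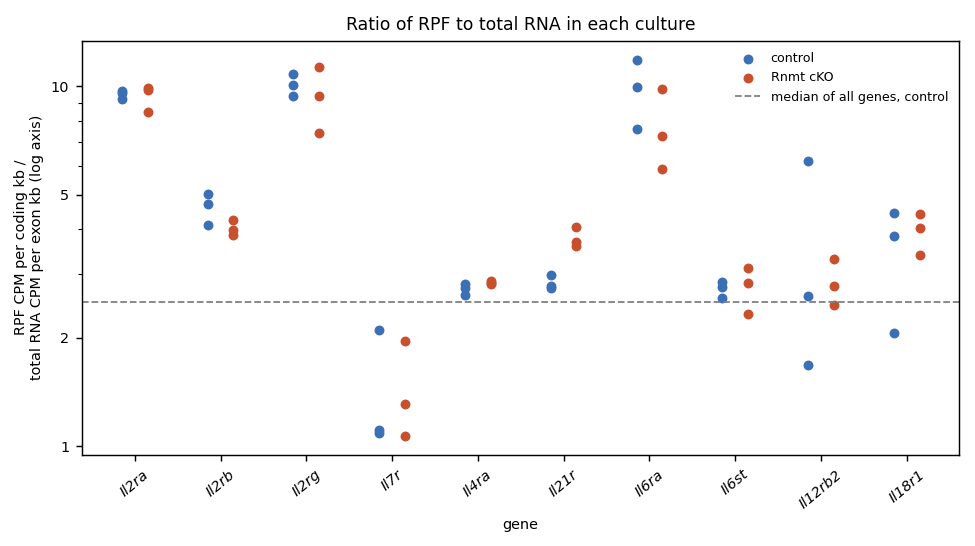
Ratio of RPF CPM per coding kilobase to total RNA CPM per exon kilobase (vertical log axis) of the 10 receptor genes in each of 3 control (blue) and 3 *Rnmt* cKO (orange) cultures, with the control median of all genes, 2.52, as a dashed line. *Il2ra*, *Il2rg* and *Il6ra* lie well above the line and all *Il7r* points below it, and the genotypes are close for most genes.

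In reads per length of the IL-2 receptor genes, the balance shifted to the alpha chain, whose protein these libraries do not measure. Of the summed CPM per exon kilobase of *Il2ra*, *Il2rb* and *Il2rg*, *Il2ra* held 35.2% ± 0.627 (SD, n = 3) in control total RNA and 45.3% ± 1.82 in *Rnmt* cKO total RNA, and *Il2rg* 40.4% ± 1.30 and 31.0% ± 1.85, while *Il2rb* held 24.4% ± 1.65 and 23.7% ± 2.13. Per coding kilobase in RPF, *Il2ra* held 39.2% ± 0.927 in controls and 52.7% ± 2.53 in *Rnmt* cKO libraries. The order of the chains depends on the length that is used, since *Il2ra* held 64.5% ± 0.854 of control total RNA per coding kilobase, but the rise of its share with genotype did not. The chains that pair with *Il2rg* were also set against it. The ratio of *Il21r* to *Il2rg* per exon kilobase was 0.486 ± 0.0320 in control total RNA and 1.36 ± 0.0835 in *Rnmt* cKO total RNA, that of *Il4ra* 0.616 ± 0.0722 and 0.883 ± 0.149, and that of *Il7r* 0.0470 ± 0.0081 and 0.0538 ± 0.00995. The genotypes did not overlap for *Il21r* and *Il4ra*, and overlapped for *Il7r*. Over the unshared bases of *Il2rg* alone, *Il2ra* held 26.8% ± 0.444 in control total RNA and 36.6% ± 1.64 in *Rnmt* cKO total RNA, *Il2rg* 54.5% ± 1.34 and 44.3% ± 2.14, and the ratio of *Il21r* to *Il2rg* was 0.274 ± 0.0181 and 0.769 ± 0.0471. In RPF per unshared coding kilobase, *Il2ra* held 20.5% ± 0.901 and 31.4% ± 2.75. The levels thus depend on the bases that are taken. The direction of the difference between genotypes did not turn for the shares of *Il2ra* and *Il2rg* or the ratio of *Il21r* to *Il2rg*. It did turn for *Il2rb*, which held 18.6% ± 1.39 and 19.1% ± 1.87 in total RNA per unshared exon kilobase. In RPF *Il2rb* held 13.2% and 11.8% per coding kilobase, but 6.91% and 7.06% per unshared coding kilobase. These shares are descriptions, and 3 against 3 libraries were not tested.

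Few partner chains of the 10 receptors passed the threshold. *Il12rb1*, which pairs with *Il12rb2*, was at 71.5, 69.2 and 90.1 CPM in control total RNA and at 81.3, 96.0 and 80.3 CPM in *Rnmt* cKO total RNA, and did not pass the threshold in any comparison, nor did *Il18rap*, the second chain of the IL-18 receptor, or *Il15ra*, which presents IL-15. *Il27ra*, which pairs with gp130, was at 95.1, 89.6 and 94.8 CPM in control total RNA and at 78.2, 77.4 and 88.2 CPM in *Rnmt* cKO total RNA, and fell (log2 fold change -0.20 ± 0.07, adjusted p = 0.041), a call that held in 4 of the 15 other ways of processing and was lost with DESeq2 (adjusted p = 0.090) and without *Rnmt* cKO replicates 1 and 2 (-0.050, adjusted p = 0.64). *Crlf2*, the TSLP receptor chain that pairs with *Il7r*, was at 29.7, 27.6 and 27.1 CPM in control total RNA and at 24.0, 24.0 and 26.4 CPM in *Rnmt* cKO total RNA (-0.18 ± 0.08, adjusted p = 0.085, and -0.23, adjusted p = 0.046, with upper-quartile normalisation), but at 47.1, 50.8 and 49.5 CPM in control RPF and at 58.2, 60.0 and 58.3 CPM in *Rnmt* cKO RPF (0.26 ± 0.07, adjusted p = 0.027). Its genotypes were apart in both kinds, and its TE rose (0.44 ± 0.10, adjusted p = 0.016). The RPF call held in 6 of the 15 other ways of processing, and was lost with DESeq2 (adjusted p = 0.094), with no filter (0.23, adjusted p = 0.20) and without *Rnmt* cKO replicates 1 and 2 (0.25, adjusted p = 0.25). The TE call was kept with DESeq2 (adjusted p = 0.015) and lost without *Rnmt* cKO replicates 1 and 2 (0.32, adjusted p = 0.39). *Il13ra1*, *Il9r*, *Lifr*, *Osmr* and *Il11ra1* did not pass the filter on low counts. Of the 5 partner chains tested, 0 rose and 1 fell in total RNA, and 1 rose and 0 fell in RPF, where 54.2% and 29.8% of all genes were called. In RPF *Il18rap* was above 1 CPM in all *Rnmt* cKO libraries but not in all controls, and without it 4 were tested.

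Of 41 other cytokine receptor genes, 17 were tested in each kind. *Il1r2* and *Il3ra* in total RNA, and *Il3ra* in RPF, were above 1 CPM in all libraries of 1 genotype but not of the other, and are left out of the counts. Of the other 15 in total RNA, 2 rose and 4 fell, with a median of -0.14, and of 16 in RPF 4 rose and 2 fell, with a median of -0.05. Over all genes, 54.2% were called in total RNA and 29.8% in RPF. *Il1r2*, the decoy receptor for IL-1, was at 0.584, 0.741 and 1.08 CPM in control total RNA and at 3.67, 3.71 and 3.84 CPM in *Rnmt* cKO total RNA, where it passed the filter through the *Rnmt* cKO libraries. In RPF it was at 1.503, 1.36 and 2.57 CPM in controls and at 11.7, 9.08 and 12.5 CPM in *Rnmt* cKO libraries (log2 fold change 2.59 ± 0.29, adjusted p = 0.00056). *Il10ra*, the IL-10 binding chain, rose by 1.13 ± 0.11 on the log2 scale in total RNA and 1.16 ± 0.22 in RPF, and *Tgfbr3* by 0.40 ± 0.09 and 0.36 ± 0.07. With the B cell marker covariate, *Tgfbr3* did not pass in total RNA (0.36, adjusted p = 0.052) or RPF (0.42, adjusted p = 0.054). *Il10ra* did not pass in RPF there (1.02, adjusted p = 0.11). *Il3ra*, the IL-3 binding chain, was at 1.64, 1.64 and 1.40 CPM in control total RNA and at 0.679, 0.825 and 0.605 CPM in *Rnmt* cKO total RNA, and passed the filter there through the controls alone. *Sigirr*, a negative regulator of IL-1 and IL-18 receptors, fell by 0.54 ± 0.09 in total RNA. *Ifngr1*, the interferon gamma binding chain, fell by 0.75 ± 0.09 in total RNA and 0.55 ± 0.11 in RPF, and *Ifnar1*, of the type I interferon receptor, by 0.39 ± 0.09 in RPF. The *Ifnar1* call was lost without *Rnmt* cKO replicate 1 (-0.35, adjusted p = 0.052). With the B cell marker covariate the RPF calls of *Ifnar1* (-0.45, adjusted p = 0.077) and *Ifngr1* (-0.48, adjusted p = 0.10) were lost, although the fall of *Ifnar1* was no smaller. In TE, 0 of 16 passed the threshold with edgeR, against 9.81% of all genes. An unadjusted p under 0.05 was seen for 3, against 2627 of all 10668 genes, and DESeq2 called 0. *Sigirr* passed with the block for the culture (0.41, adjusted p = 0.040) and with upper-quartile normalisation (0.43, adjusted p = 0.040). It also passed with at least 10 counts in every library (0.39, adjusted p = 0.048). *Sigirr* further passed with the B cell marker covariate (0.40, adjusted p = 0.031) and without *Rnmt* cKO replicate 3 (0.49, adjusted p = 0.0078).

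Of 18 listed genes of cytokines or cytokine subunits that bind these receptors or their partner chains, 3 were tested in total RNA and 4 in RPF. In RPF *Ebi3* was above 1 CPM in all *Rnmt* cKO libraries but not in all controls, and is left out of the counts. The other 3 rose in both kinds, against 26.3% and 14.1% of all genes. *Il2* was at 10.2, 5.98 and 7.98 CPM in control total RNA and at 19.8, 26.0 and 21.7 CPM in *Rnmt* cKO total RNA (log2 fold change 1.48 ± 0.19, adjusted p = 0.00041), and it rose by 1.83 ± 0.17 in RPF (adjusted p = 0.00022). *Lif*, a gp130 cytokine, rose by 2.22 ± 0.24 in total RNA and 2.26 ± 0.28 in RPF, and *Osm* by 0.78 ± 0.09 and 0.76 ± 0.20. None of the 3 overlapped between genotypes. Of all genes tested, 62.3% did not overlap in total RNA and 46.5% in RPF, in either direction. In TE 0 of 3 passed, against 9.81% of all genes, with 0 at an unadjusted p under 0.05 and 0 with DESeq2. The RPF call of *Osm* held in 9 of the 15 other ways of processing. It was lost with DESeq2 (0.77, adjusted p = 0.062) and with the B cell marker covariate (0.50, adjusted p = 0.33). It was also lost once any one library other than *Rnmt* cKO replicate 3 was left out (0.67 to 0.78, adjusted p = 0.052 to 0.084). *Il4*, *Il7*, *Il15*, *Il21*, *Il6*, *Il12a*, *Il12b* and *Il18* were among those below the filter.

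**Figure D5:**
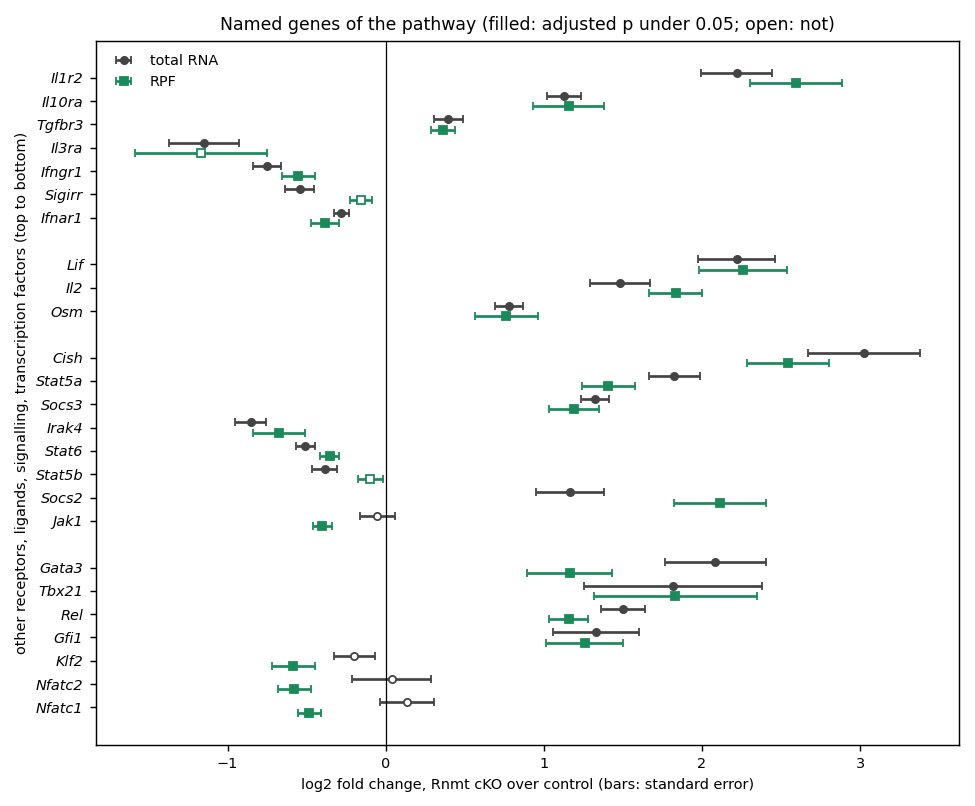
Log2 fold change of *Rnmt* cKO over control (horizontal axis) with its standard error for the named other receptors, ligands, signalling genes and transcription factors (vertical axis, in 4 blocks) in total RNA (circles) and RPF (squares), filled where the adjusted p was under 0.05. *Cish* and *Lif* lie above 2 in both kinds. In total RNA, *Il1r2* and *Il3ra* passed the filter on low counts through 1 genotype, so their points there are descriptions.

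All 23 signalling genes were tested: 9 rose and 4 fell in total RNA (median 0.14), and 8 rose and 3 fell in RPF (median 0.17), where 54.2% and 29.8% of all genes were called. The inducible inhibitors of JAK and STAT signalling were among those with the largest rises. *Cish* was at 18.8, 19.2 and 20.1 CPM in control total RNA and at 141, 246 and 84.9 CPM in *Rnmt* cKO total RNA (log2 fold change 3.02 ± 0.36, adjusted p = 0.00028), and rose by 2.54 ± 0.26 in RPF. Its rise in total RNA was smaller without *Rnmt* cKO replicates 1 and 2 (2.16) and with the B cell marker covariate (2.10). *Socs3* rose by 1.32 ± 0.09 in total RNA, and *Socs2* by 2.11 ± 0.29 in RPF. *Stat5a*, the STAT of the IL-2 receptor, was at 103, 98.5 and 104 CPM in control total RNA and at 326, 464 and 292 CPM in *Rnmt* cKO total RNA (1.83 ± 0.16, adjusted p = 6.9e-05). Its close relative *Stat5b* fell by 0.38 ± 0.08 in total RNA, *Stat6*, which acts for IL-4, by 0.51 ± 0.06, and *Irak4*, a kinase of the MyD88 route, by 0.85 ± 0.10. *Jak1*, which binds most of these receptors, fell by 0.40 ± 0.06 in RPF (adjusted p = 0.0020), where control libraries were at 754, 714 and 749 CPM and *Rnmt* cKO libraries at 572, 543 and 563 CPM. In TE, 0 of 23 passed with edgeR, against 9.81% of all genes. An unadjusted p under 0.05 was seen for 3, against 2627 of all 10668 genes, and DESeq2 called 0. With the block for the culture *Stat5a* passed (-0.43, adjusted p = 0.015). *Stat5a* also passed without *Rnmt* cKO replicate 2 (-0.45, adjusted p = 0.015), and *Jak1* without *Rnmt* cKO replicate 3 (-0.45, adjusted p = 0.033).

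Of 14 transcription factors of T cell activation and helper fates, 13 were tested in both kinds: 7 rose and 0 fell in total RNA (median 0.57), and 7 rose and 3 fell in RPF (median 0.39), against 54.2% and 29.8% of all genes called in either direction. *Gata3*, the factor of type 2 helper cells, was at 2.39, 2.44 and 2.26 CPM in control total RNA and at 8.96, 14.96 and 6.26 CPM in *Rnmt* cKO total RNA (log2 fold change 2.08 ± 0.32, adjusted p = 0.00098). *Rel*, an NF-kappaB subunit, rose by 1.501 ± 0.14 in total RNA and *Gfi1* by 1.26 ± 0.24 in RPF. *Tbx21*, the factor of type 1 helper cells, spread widely among controls, at 3.45, 7.46 and 24.1 CPM, against 45.7, 48.2 and 29.5 CPM in *Rnmt* cKO total RNA (1.82 ± 0.56, adjusted p = 0.025). Its rise was 2.91 without control replicate 3, and was 1.37 and did not pass without *Rnmt* cKO replicates 1 and 2. It also did not pass without control replicate 2 (1.57, adjusted p = 0.089) or without *Rnmt* cKO replicate 1 (1.75, adjusted p = 0.064). With the B cell marker covariate it was 0.84 (adjusted p = 0.18). *Klf2*, which keeps T cells quiescent, fell by 0.59 ± 0.13, *Nfatc2* by 0.58 ± 0.10 and *Nfatc1* by 0.48 ± 0.07 in RPF. In TE, 0 of 13 passed with edgeR, against 9.81% of all genes. An unadjusted p under 0.05 was seen for 1, against 2627 of all 10668 genes. DESeq2 called 1, *Nfatc1* (-0.62, adjusted p = 0.022), and with the block for the culture *Gata3* passed (-0.94, adjusted p = 0.0084). *Gata3* also passed without *Rnmt* cKO replicate 2 (-0.95, adjusted p = 0.034), and *Runx3* (-0.92, adjusted p = 0.043) and *Nfatc1* (-0.81, adjusted p = 0.016) without *Rnmt* cKO replicate 3. Without *Rnmt* cKO replicates 1 and 2, 1 *Rnmt* cKO library was left and fewer of all genes passed in RPF. The RPF calls of the following named genes then did not pass, given as log2 fold change with the main value in brackets. The rises were *Crlf2* 0.25 (0.26), *Tgfbr3* 0.43 (0.36), *Il10ra* 0.91 (1.16), *Osm* 0.43 (0.76), *Tbx21* 1.43 (1.83), *Gfi1* 0.80 (1.26) and *Gata3* 0.67 (1.16). The falls were *Ifngr1* -0.45 (-0.55), *Ifnar1* -0.35 (-0.39), *Irak4* -0.65 (-0.67), *Stat6* -0.34 (-0.35), *Klf2* -0.40 (-0.59), *Nfatc1* -0.38 (-0.48) and *Nfatc2* -0.67 (-0.58).

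The genes most like each receptor were sought among 6609 well-measured genes (mean log2 CPM 4 or more), by Pearson's r of log2 CPM centred within each kind over the 12 libraries, as a description. Most like *Il2ra* were *Cd44* (r = 0.991), an adhesion receptor of activated T cells, and *Serpinb9* (r = 0.991), and most like *Il21r* were *Traf6* (r = 0.990) and *Tnfsf8* (r = 0.990). *Il12rb2* was most like *Fosl2* (r = 0.971) and *Dusp11* (r = 0.967), *Il4ra* like *Sema4b* (r = 0.960) and *Itgav* (r = 0.949), and *Il2rb* like *Ints3* (r = 0.982) and *Incenp* (r = 0.938). *Il6ra* was most like *Fam3c* (r = 0.964) and *Ms4a4b* (r = 0.960), and *Il6st* like *Tnik* (r = 0.971) and *Ccdc82* (r = 0.963). For the genes that did not pass the threshold in either kind, *Il2rg* went with *Cd3e* (r = 0.880) and *Pak2* (r = 0.813), *Il7r* with *Isoc1* (r = 0.868) and *Hmgcs1* (r = 0.854), and *Il18r1* with *Vim* (r = 0.906) and *C87436* (r = 0.902). The 12 libraries share the difference between genotypes and come in pairs from 6 cultures, so a high r is common to all genes that moved in step with genotype.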

How the data were processed

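Total RNA and RPF libraries were prepared with the Illumina TruSeq Ribo Profile kit. The authors used the second read, trimmed adapters, removed rRNA and tRNA reads with Bowtie, aligned the rest to GRCm38 with STAR 2.5.2b and GENCODE vM12, and deposited uniquely aligned whole-number counts per gene. The counts on the gene's strand were used. Symbols and positions came from the deposited gene table and GENCODE vM21, and 12 columns of normalised values per library of that table, with its log2 and p-value columns, were not used. Groups came from the labels, where a replicate is a culture, and 2 replicates of a group never agreed within sampling noise.

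Genes with CPM above 1 in at least 3 of 6 libraries were tested in edgeR 4.0.16 (R 4.3.3) by its quasi-likelihood test after TMM. TE was the term for genotype by library kind in a model of the 12 libraries, normalised within kind, with Benjamini-Hochberg adjustment over all genes and a threshold of 0.05. Errors beside log2 values are standard errors, and intervals are 95%. The p-values measure the spread between these libraries, since the labels do not state separate animals. Reads that named no gene (41.1 to 70.4% of all reads) stayed out of library sizes. The fits were tested on simulated data. Same-numbered control and *Rnmt* cKO libraries had r over genes of -0.476 to -0.171 in total RNA and of -0.12 to 0.284 in RPF, so the number was not taken to pair genotypes. Total RNA and RPF of the same number did in all 6 pairs (r over genes 0.113 to 0.378). The number thus pairs the cultures in the ratios and in the block, but the main TE fit did not use it. That pairing comes from the data, not from the labels.

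The alternatives were library size without TMM, upper-quartile normalisation, DESeq2 1.42.0, edgeR's exact test, no filter, at least 10 counts in every library, both strands, no mitochondrial genes, a replicate block, each replicate left out and coding length. Leaving out *Rnmt* cKO replicates 1 and 2 and using B cell marker level as a covariate were added after seeing the data, as were levels over bases unshared with another gene and list counts of genes above 1 CPM in all libraries. Named genes are the 10 receptors, 10 partner chains and, for each other list and comparison, the 3 largest rises and falls past the threshold without overlap. The receptors and lists were chosen with earlier results of these data known. Protein sequences were not used here, and 1 B cell marker is not reported here and entered no sum.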

Additional observations from a re-analysis of the deposited data

Results flagged for a closer look

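A test of the difference between library kinds flagged 1 partner chain of these receptors. *Crlf2* had a log2 fold change of -0.18 in total RNA, which did not pass the threshold (adjusted p = 0.085, edgeR's quasi-likelihood test). In RPF it rose by 0.26 (adjusted p = 0.027), a call that held in 6 of the 15 other ways of processing. Its log2 change in TE was 0.44 (adjusted p = 0.016, edgeR's interaction test). Without control replicate 1 it was 0.36 (adjusted p = 0.12), without *Rnmt* cKO replicate 1 it was 0.42 (adjusted p = 0.088) and without *Rnmt* cKO replicate 2 it was 0.39 (adjusted p = 0.077), so the call rested on each of those libraries. Without both *Rnmt* cKO replicates 1 and 2 it was 0.32 (adjusted p = 0.39). *Rnmt*, the deleted gene, had a log2 change in TE of -1.62 (adjusted p = 3.2e-06), with a log2 fold change of -1.62 in total RNA and -3.24 in RPF. Groups of 3 libraries were too small for a test of single outlying libraries.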

How the results depend on the processing

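Over the 10 receptors, 451 of 500 alternative values kept their direction and their side of the threshold. *Il21r* and *Il2ra* in total RNA and RPF, *Il6ra* in both, and *Il2rb* and *Il6st* in total RNA did so in each of the 15 other ways of processing that were planned, with a log2 fold change of 1.45 to 1.62 for *Il21r* in total RNA. The receptors called as raised in total RNA numbered 5, and 3 with the B cell marker level as a covariate. In RPF they numbered 4, and 2 without *Rnmt* cKO replicates 1 and 2, 2 with the covariate and 2 to 4 when each replicate was left out. Receptors called as lowered in RPF numbered 1, and 2 with upper-quartile normalisation, 2 with no filter, 2 with the replicate block and 1 to 2 when each replicate was left out. In TE, 0 rose, and 1 with the block and 0 to 1 when each replicate was left out.

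For the other listed genes (those that passed the filter through 1 genotype included), 22 rose in total RNA and 37 did with no filter. In RPF 23 rose and 8 fell, against 11 and 1 without *Rnmt* cKO replicates 1 and 2 (1 *Rnmt* cKO library then stands against 3 controls and is assumed to vary as they do) and 11 and 3 with the covariate. In TE 1 rose, against 2 with upper-quartile normalisation, 2 with at least 10 counts, 2 with the replicate block, 2 with the covariate, 0 without *Rnmt* cKO replicates 1 and 2, and 0 to 2 when each replicate was left out. In TE 0 fell, against 1 with DESeq2, 2 with the block and 0 to 3 when each replicate was left out. The block used the replicate number for total RNA and RPF, where the number was not taken to pair libraries, and there it raised calls for *Il6st* in RPF (-0.30, adjusted p = 0.019), and in TE the paired culture.

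The following values changed sign, and none of them was past the threshold after the change. Without *Rnmt* cKO replicates 1 and 2, *Il7r* had a log2 fold change of -0.10 in total RNA, of -0.48 in RPF and of -0.38 in TE, that of *Il18r1* in RPF 0.096, and in TE those of *Il2ra* 0.024, *Il6ra* 0.0047 and *Il12rb2* 0.11. With the covariate, it was -0.067 for *Il2rg* and -0.19 for *Il7r* in total RNA, and -0.21 for *Il7r* and 0.52 for *Il18r1* in RPF. In TE, *Il2ra* was at 0.020 with upper-quartile normalisation, and *Il6st* at -0.0043 without TMM, -0.0056 with DESeq2 and -0.0013 with the block. When each replicate was left out, *Il2rg* in total RNA ran from -0.035 to 0.16, and in TE *Il2ra* ran from -0.070 to 0.047, *Il2rg* from -0.28 to 0.027, *Il7r* from -0.041 to 0.48, *Il6st* from -0.089 to 0.11, *Il12rb2* from -0.34 to 0.30 and *Il18r1* from -0.061 to 0.31. The cause of these changes was not tested. *Il7r*, *Il12rb2* and *Il18r1* had 10 to 250 reads a library, and the part of depth was not tested. Over all genes, 346 rose and 701 fell in TE, against 481 and 604 with upper-quartile normalisation, 81 and 294 without *Rnmt* cKO replicates 1 and 2, and 122 to 367 and 415 to 812 when each replicate was left out. In RPF 495 rose and 547 fell with the covariate, and 1085 to 1414 rose when each replicate was left out.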

Other observations

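The mRNA of markers of T cell activation rose beside that of *Il2ra*, whereas the paper reports equivalent induction of CD69 protein in both genotypes. Of 6 markers, 5 rose in both total RNA and RPF (*Cd69*, *Cd44*, *Tnfrsf4*, *Tnfrsf9* and *Nr4a1*), against 26.3% and 14.1% of all genes tested, and *Egr2* did not pass (log2 fold change 0.08 ± 0.09 in total RNA, adjusted p = 0.45). *Cd44* had the largest rise of the 6, of 2.19 ± 0.40 in total RNA (adjusted p = 0.0025) and 2.09 ± 0.25 in RPF (adjusted p = 0.00082), and *Cd69* rose by 0.85 ± 0.10 and 0.74 ± 0.12. Without *Rnmt* cKO replicate 2 the rise of *Cd44* in total RNA was 1.54. Leaving out *Rnmt* cKO replicates 1 and 2 left 1 *Rnmt* cKO library. The 5 log2 fold changes were then 0.81 to 1.38 in total RNA and 0.56 to 1.55 in RPF. With the B cell marker level as a covariate, *Cd44* in total RNA was at 1.29 (adjusted p = 0.055), against 2.19, and did not pass. In RPF *Cd69* was at 0.63 (adjusted p = 0.051) and *Nr4a1* at 0.62 (adjusted p = 0.057), against 0.74 and 0.73, and neither passed.

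Genes of the T cell receptor complex did not rise. Of 7 T cell markers, 4 fell in both kinds of library, against 28% of all genes in total RNA and 15.7% in RPF, and their summed level was 2871 to 3022 CPM in control total RNA and 2220 to 2437 CPM in *Rnmt* cKO total RNA. *Cd3g* fell by 1.23 ± 0.11 on the log2 scale, *Lck* by 0.90 ± 0.06, *Cd3d* by 0.74 ± 0.11 and *Trac* by 0.33 ± 0.09 in total RNA, while *Cd28* was at -0.01 ± 0.07 (adjusted p = 0.92) and *Cd3e* at 0.10 ± 0.11 (adjusted p = 0.47). Without *Rnmt* cKO replicates 1 and 2, which leaves 1 *Rnmt* cKO library, the 4 values in total RNA were -0.998 to -0.33. In RPF *Cd3d* was then at -0.38 and *Trac* at -0.30, against -0.43 and -0.46, and these calls were lost. With the covariate the call of *Trac* was lost in total RNA (-0.33) and RPF (-0.33) and that of *Cd3d* in RPF (-0.35). The call of *Trac* in total RNA was also lost without control replicate 2. The CD8 T cell markers *Cd8a* and *Cd8b1* summed to 21.4, 21.4 and 41.7 CPM in control total RNA and to 26.4, 21.3 and 9.85 CPM in *Rnmt* cKO total RNA, and neither passed the threshold.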
